A study of Rattus norvegicus with 100 samples.

Results

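The genes described here encode the subunits of the mitochondrial respiratory chain and of the ATP synthase, with the assembly factors and the inhibitor that carry the same naming prefixes. They were taken by name: symbols starting with Nduf (complex I), Sdha to Sdhd (complex II), Uqcr (complex III), Cox4 to Cox8 (complex IV) or Atp5 (complex V). Of 13439 genes with a probe set of a single symbol, 87 matched, and 81 of these, among 8843 genes in all, had a log2 signal above 5 in at least 3 of 100 arrays and were tested. They were 33 genes of complex I, 4 of complex II, 7 of complex III, 11 of complex IV, 15 of complex V and 11 assembly factors and inhibitors (Ndufaf, Sdhaf and Atp5if1). By its letters Ndufa4 is counted under complex I, although its protein sits in complex IV.

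Primary rat hepatocytes of 4 biological replicates (Rs627, Rs628, Rs631 and Rs632) were cultured on plates coated with rat collagen IV, with Geltrex added after plating in all groups, and exposed to GW7647, a synthetic agonist of the nuclear receptor PPARα. Expression arrays were run at 5 exposure times (2 h, 6 h, 12 h, 24 h, 72 h) and 6 concentrations (0 µM, 0.001 µM, 0.01 µM, 0.1 µM, 1 µM, 10 µM). Each of the 30 groups held 2 to 4 arrays, at most 1 per replicate, and each exposed group was compared with the 0 µM cultures of its own time. Whether a replicate is 1 animal or a pool, the strain, sex and age of the rats, and whether the 0 µM cultures received a solvent are not given in the sources used here.

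Complexes I and II pass electrons from NADH and succinate to ubiquinone, complex III passes them to cytochrome c, and complex IV passes them to oxygen, while protons are pumped out of the matrix at complexes I, III and IV. The ATP synthase, complex V, makes ATP from the returning protons, and the small protein encoded by Atp5if1 blocks the enzyme when it would run backwards and consume ATP. In liver the chain takes up the NADH and reduced flavoproteins that fatty acid oxidation, the best known target pathway of PPARα, produces.

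The hepatocyte markers Alb, Apoa1, Ttr, Apob, Hnf4a and Cps1 had high signal on every array, from a lowest value of 9.58 for Hnf4a to a highest of 13.81 for Alb. None of the 4 endothelial markers with a probe set passed the filter on low signal, 2 of 6 macrophage markers did (Lyz2 and Cd68), and so did 4 of 7 stellate and 4 of 5 bile duct markers. On the log2 scale of the summed signal, the macrophage list ranged from 8.52 to 9.58 in the 4 arrays at 0 µM and from 7.08 to 8.57 at 1 µM, both at 72 h. The shift came mostly through Lyz2, which was lower at 1 µM (−2.13 ± 0.32). Cd68, the other macrophage marker tested, had means of 4.32 at 0 µM and 4.64 at 1 µM and did not pass. Cd163, Clec4f, Ptprc and Csf1r stayed under the filter. The stellate list ranged from 7.67 to 8.0 and from 7.44 to 8.34 in the same groups. Of its genes, Col1a2 (−0.75 ± 0.17) and Acta2 (−0.55 ± 0.15) were lower and Col3a1 (0.46 ± 0.47) and Pdgfrb (0 ± 0.16) did not pass. The bile duct list ranged from 9.84 to 11.31 and from 9.66 to 10.33, mostly through Epcam, with means of 10.41 and 9.91. Krt19, Krt7 and Spp1 averaged 4.79, 4.41 and 4.89 over all arrays, and Sox9 stayed under the filter. None of the 4 bile duct markers tested passed. The 3′ minus 5′ difference of the β-actin control probe sets, a measure of RNA integrity on the log2 scale, was 1.42 to 1.83 at 0 µM and 1.75 to 2.08 at 1 µM at 72 h, and that of GAPDH was 0.35 ± 0.06 and 0.34 ± 0.09 (SD, n = 4 each). Their part in the results below was not tested. Because these are bulk samples, fewer cells of a type and less RNA per cell cannot be told apart. A low 75th percentile of signal (below 6.6) set 5 arrays apart, among them Rs631 and Rs632 at 1 µM and 24 h. For 95 of 100 arrays the nearest array of another group carried the same replicate label; at 0 µM and 12 h the arrays of Rs627 and Rs628 each lay nearest to one labelled as the other.

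At 1 µM none of the 81 passed an adjusted p of 0.05 (limma) in either direction at 2 h, at 6 h or at 12 h, when 0.351%, 1.73% and 3.96% of all genes tested were higher and 0.0226%, 0.305% and 1.45% were lower. At an unadjusted p of 0.05 the member counts were 0, 1 and 4. With the replicate as a block in the model (the replicate block) the counts became 0, 1 (Ndufaf4) and 2 (Ndufc1 and Ndufs1). In that fit 0.746%, 2.95% and 7.02% of all genes were higher. At 24 h 7 members were higher and 3 were lower, against 7.06% and 22.6% of all genes, so the members' 8.64% higher was close to the background. Those counts were 4 and 3 without Rs627 (5.5% and 22.4% of all genes) and 3 and 1 without Rs632 (4.22% and 5.59%). With the replicate block they were 21 and 5 (11.4% and 38.4%). At 72 h 25 were higher and 2 were lower, 30.9% and 2.47% of the members against 11.3% and 15.5% of all genes. The median change of the members at 72 h was 0.15 on the log2 scale and that of all genes tested was −0.06. With arrays centred on the median of the genes tested the order of the times turned: 29 members were higher at 24 h and 14 at 72 h, against 15.7% and 14.6% of all genes.

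**Figure D1:**
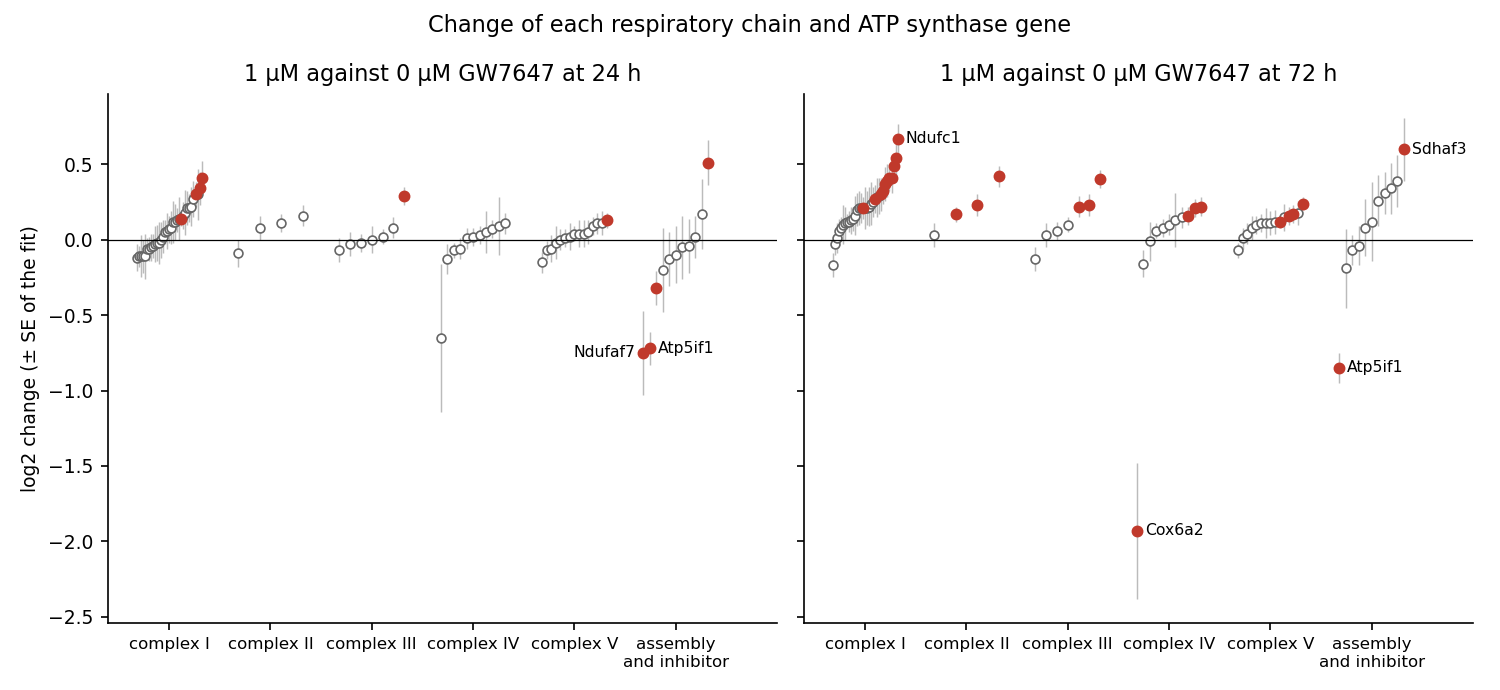
Change of each of the 81 tested genes at 1 µM against 0 µM (log2, vertical axis, bars give the standard error of the fit), grouped by complex, at 24 h and at 72 h; filled points passed an adjusted p of 0.05. At 72 h 31 of 33 complex I genes lay above 0, and Atp5if1 and Cox6a2 lay far below the rest.

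The promoters of these genes are known for sites of NRF1 and of ETS family factors such as GABPA, and PPARα binds direct repeats with a spacer of 1 base, so the 250 bases before each start were searched on both strands for GCGCATG, for CCGGAAG and for AGGNCA repeated after any 1 base (RefSeq, GRCr8; overlapping matches were counted once per promoter). Of the 81 members 76 had a promoter in the table. CCGGAAG was found in 24 of them (31.6%) and in 7.74% of 27457 promoters, and GCGCATG in 12 (15.8%) and in 3.45%. The direct repeat was in none of the 76 and in 0.353% of all promoters. Among the 23 members higher at 1 µM and 72 h with a promoter, 6 held CCGGAAG and 1 held GCGCATG, and among the other 53 the counts were 18 and 11. The 150 bases just before the start of 6 members are printed to show both kinds: 4 higher members with a match, and Ndufc1 and Atp5if1, the highest and one of the lowest changes, which have none of the 3 motifs. Capitals mark a match on either strand.
Sdhd, chr8:59850642-59850791, minus strand: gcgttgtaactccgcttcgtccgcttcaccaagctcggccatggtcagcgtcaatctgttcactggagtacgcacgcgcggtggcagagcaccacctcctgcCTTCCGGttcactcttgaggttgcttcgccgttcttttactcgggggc
Uqcrc2, chr1:184599090-184599239, plus strand: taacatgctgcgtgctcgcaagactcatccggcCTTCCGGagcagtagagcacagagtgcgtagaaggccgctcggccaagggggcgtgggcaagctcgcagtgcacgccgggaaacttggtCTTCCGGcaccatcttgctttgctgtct
Cox8a, chr1:213833624-213833773, minus strand: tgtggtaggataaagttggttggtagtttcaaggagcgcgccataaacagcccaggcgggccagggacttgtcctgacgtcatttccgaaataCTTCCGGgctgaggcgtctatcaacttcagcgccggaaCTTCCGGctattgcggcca
Uqcrc1, chr8:118468073-118468222, plus strand: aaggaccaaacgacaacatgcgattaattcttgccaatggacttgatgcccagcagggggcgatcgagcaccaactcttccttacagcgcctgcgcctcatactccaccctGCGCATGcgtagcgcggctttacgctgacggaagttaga
Ndufc1, chr2:137601736-137601885, minus strand: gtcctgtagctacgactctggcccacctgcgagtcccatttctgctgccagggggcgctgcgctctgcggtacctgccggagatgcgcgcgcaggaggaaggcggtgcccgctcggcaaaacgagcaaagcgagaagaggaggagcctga
Atp5if1, chr5:150026678-150026827, minus strand: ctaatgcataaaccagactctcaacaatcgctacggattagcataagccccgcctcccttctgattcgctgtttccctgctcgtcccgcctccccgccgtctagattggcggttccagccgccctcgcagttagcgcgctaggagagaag

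In these letters Cox8a and Uqcrc2 each hold 2 matches of CCGGAAG, 57 and 19 bases and 117 and 28 bases before the start, and Sdhd holds 1 at 48 bases. Uqcrc1 is the only higher member with GCGCATG, 39 bases before its start. These matches describe the sequence, and no binding was measured.

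Complex I, the largest set, held 11 of the 25 members that rose at 72 h. Against 11.3% and 15.5% of all genes tested, 11 of its 33 genes were higher and none was lower, with a median change of 0.21. With the replicate block 24 were higher and 1, Ndufa2, was lower, against 16.3% and 24% of all genes. Its 6 measured core subunits (Ndufs1, Ndufs3, Ndufs7, Ndufs8, Ndufv1 and Ndufv2 by name), which carry the redox centres or line the path to them, changed by 0.16 to 0.54, and 3 of them passed; the 27 other genes changed by −0.17 to 0.67, and 8 passed. Ndufc1, a small accessory subunit of the membrane arm, gave signals of 10.73, 10.39, 10.59 and 10.83 at 0 µM in Rs627, Rs628, Rs631 and Rs632, and of 11.41, 11.24, 11.17 and 11.40 at 1 µM. Every treated array was above every 0 µM array, and the change was 0.67 ± 0.10 (SE), a fold of 1.59, with an adjusted p of 2.96e-07. Its upstream sequence, printed above, held none of the 3 motifs.

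Ndufa7, an accessory subunit of the matrix arm, was at 10.39, 10.31, 10.51 and 10.45 at 0 µM and at 10.96, 10.91, 10.93 and 10.82 at 1 µM in the same order of replicates. The groups again did not overlap, and the gene was 1.4-fold higher (log2 change 0.49 ± 0.07, adjusted p 6.87e-08). Its second probe set, dimmer at 7.30 against 6.36, was higher as well (0.94 ± 0.23). Ndufs7, the core subunit with the last iron-sulfur cluster before ubiquinone, was at 9.88, 9.61, 10.28 and 10.10 at 0 µM and at 10.60, 10.18, 10.67 and 10.58 at 1 µM. Here the groups overlapped, but each replicate was higher when treated, by 0.39 to 0.72, and the change was 0.54 ± 0.16 (adjusted p 0.00701, and 5.55e-08 with the replicate block). This call was lost without Rs627 or without Rs632, with adjusted p-values up to 0.106.

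Ndufab1, the mitochondrial acyl carrier protein that is also a complex I subunit, was at 10.87 to 11.31 at 0 µM and at 11.53 to 11.68 at 1 µM, a change of 0.41 ± 0.09 with no overlap. Ndufv3, the small subunit of the NADH-oxidising module, rose by 0.41 ± 0.10 from a mean of 9.63 ± 0.13 (SD, n = 4) to 10.04 ± 0.07. Its second probe set (8.07 against 7.54) was at 0.52 ± 0.21 and did not pass (limma over all probe sets, adjusted p 0.066). Among membrane arm subunits Ndufb3 rose by 0.39 ± 0.11 and Ndufb11 by 0.27 ± 0.09, the core subunit Ndufs3 rose by 0.37 ± 0.11, and the accessory subunits Ndufa9 and Ndufa8 rose by 0.32 ± 0.08 and 0.30 ± 0.11. For all 5 each of the 4 replicates was higher at 1 µM, while Ndufb3 and Ndufs3 overlapped between the groups. The calls of Ndufb3, Ndufs3 and Ndufa8 were lost without Rs627 or without Rs632 and that of Ndufb11 without Rs627 or without Rs631, with adjusted p-values up to 0.0654, 0.0787, 0.171 and 0.193 over all alternatives. For Ndufa9 the call was lost with the mean of a gene's probe sets (limma, adjusted p 0.0509). Ndufs1, the core subunit with the most iron-sulfur clusters, was the last of the 11, at 0.21 ± 0.07, and its call was lost whichever of the 4 replicates was left out (adjusted p up to 0.104). Ndufa2 had the lowest change of the complex, −0.17 ± 0.08 with an adjusted p of 0.123, and passed in neither direction.

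In complex II 3 of the 4 genes rose, where 11.3% of all genes tested were higher. The exception was Sdhb, the iron-sulfur subunit, at 0.03 ± 0.08 (95% interval −0.13 to 0.19). Sdhd, one of the 2 membrane anchors, was at 10.90, 10.54, 10.82 and 10.61 at 0 µM and at 11.19, 11.11, 11.03 and 11.20 at 1 µM. The treated arrays were all above the untreated ones, and the change was 0.42 ± 0.07 (adjusted p 1.7e-06), with 0.50 ± 0.10 at its second probe set. Sdha, the flavoprotein, rose by 0.23 ± 0.07 and Sdhc, the other anchor, by 0.17 ± 0.05; the call of Sdha was lost without Rs628 or without Rs632 and that of Sdhc whichever replicate was left out (adjusted p up to 0.0701 and 0.123). Of the complex II assembly factors, Sdhaf3 rose by 0.60 ± 0.21 (adjusted p 0.0256), with values of 7.82 to 8.79 at 0 µM and 8.78 to 9.01 at 1 µM; its call was lost without Rs627, without Rs628 or without Rs632 (adjusted p up to 0.135). Sdhaf2, which helps attach the flavin of Sdha, was at −0.04 ± 0.13.

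In complex III the gene that stood out was Uqcrfs1, the Rieske iron-sulfur protein that hands electrons toward cytochrome c1. It was at 10.95, 10.89, 11.11 and 10.96 at 0 µM and at 11.36, 11.34, 11.40 and 11.39 at 1 µM. All 4 treated arrays lay within a narrow band above the untreated ones, and the change was 0.40 ± 0.06 (1.32-fold, adjusted p 9.33e-08). The core proteins Uqcrc2 and Uqcrc1 rose by 0.23 ± 0.07 and 0.22 ± 0.07, and both calls were lost without Rs627 or without Rs632 and that of Uqcrc1 also without Rs628 (adjusted p up to 0.121 and 0.12). A second, dimmer probe set of Uqcrc2 (8.45 against 8.34) was at 0.11 ± 0.13 and did not pass (limma over all probe sets, adjusted p 0.6). The call of Uqcrc2 was also lost with the mean of a gene's probe sets. The small subunits Uqcr10, Uqcr11, Uqcrq and Uqcrh did not pass, at 0.06, 0.03, 0.10 and −0.13.

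The median change of the 11 complex IV genes was 0.10. Among them is Cox6a2, with the largest change of all members tested (−1.93), which is described below with Cox7a2l. Cox7b (0.22 ± 0.06), Cox8a (0.21 ± 0.06) and Cox4i1 (0.16 ± 0.06), nuclear-encoded subunits around the catalytic core, were higher, and Cox5b, Cox6b1, Cox7c and Cox6a1 were at 0.15, 0.08, 0.06 and 0.10 without passing. Cox5a, whose probe set was dim at 6.6 ± 0.06 and 6.74 ± 0.33, was at 0.13 ± 0.18. A brighter probe set that lists Cox5a with LOC100361008 was left out of the members. It was at 11.91 at 1 µM against 11.75 at 0 µM, a change of 0.16 ± 0.07 that did not pass (limma over all probe sets, adjusted p 0.0688). Leaving out Rs628 ended all 3 calls of higher genes, leaving out Rs627 those of Cox8a and Cox4i1, and leaving out Rs632 that of Cox4i1. The adjusted p-values (limma) went up to 0.094, 0.0756 and 0.197 for Cox7b, Cox8a and Cox4i1.

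In complex V 4 of 15 genes rose and none fell, against 11.3% and 15.5% of all genes tested. Atp5mc3, one of the genes for the rotating c ring, rose by 0.24 ± 0.04 (limma, adjusted p 9.78e-06). The peripheral stalk subunits Atp5pd and Atp5pf rose by 0.17 ± 0.06 and 0.16 ± 0.06, and the catalytic β subunit Atp5f1b by 0.12 ± 0.04. The call of Atp5pd was lost without Rs627, without Rs631 or without Rs632, and those of Atp5pf and Atp5f1b whichever replicate was left out (adjusted p up to 0.213, 0.194 and 0.176). Atp5mc3 was at 12.11 to 12.29 at 0 µM and at 12.42 to 12.50 at 1 µM. Its paralogue Atp5mc1, which encodes the same mature c subunit, was at 11.81 ± 0.16 and 11.92 ± 0.07 (SD, n = 4 each), a change of 0.11 ± 0.10 that did not pass (adjusted p 0.464). The 11 genes of the complex that did not pass ranged from −0.07 for Atp5mf, a small subunit of the membrane part, to 0.18 for Atp5pb, the stalk's long b subunit.

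The members that fell at 72 h were Atp5if1 and Cox6a2. Atp5if1, the inhibitor of ATP synthase running in reverse, was at 10.00, 9.96, 10.12 and 10.07 at 0 µM and at 9.15, 9.08, 9.36 and 9.16 at 1 µM in Rs627, Rs628, Rs631 and Rs632. The groups lay far apart, each replicate was lower by 0.76 to 0.90, and the fall was 1.80-fold (log2 change −0.85 ± 0.10, adjusted p 4.09e-10). Its other probe sets were near the floor of the array, at 4.30 against 4.54 and at 3.48 against 3.32, and gave no call.

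Cox6a2, the isoform of subunit 6a known from heart and skeletal muscle, was at 6.54, 7.73, 6.18 and 6.20 at 0 µM and at 4.30, 5.51, 4.87 and 4.27 at 1 µM. The untreated arrays were all above 5 and only 1 of 4 treated arrays was, so the fitted change of −1.93 ± 0.45 (adjusted p 0.000578) rests on signal at the floor; with values under 5 set to 5, Cox6a2 was at least 2.9-fold lower. The widespread isoform Cox6a1 was at 11.60 ± 0.06 and 11.70 ± 0.07 (SD, n = 4 each; adjusted p 0.258). Of the other isoform pairs, the muscle form Cox7a1 stayed below 5 on all 8 of these arrays (4.37 ± 0.13 and 4.36 ± 0.16), and Cox7a2l, which takes part in joining complexes III and IV, was at 10.67 ± 0.12 and 10.52 ± 0.20. Cox4i2, Cox6b2, Cox7b2, Cox8b, Ndufa4l2 and the pseudogene Cox6c-ps1 are the 6 matching genes that did not pass the filter. Just outside it Cox8b was above 5 on 2 arrays of the study, with a highest value of 5.52, and just inside it Cox7a1 was above 5 on 3, with a highest value of 5.16.

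The number of genes past the threshold at 72 h depended on single replicates. It was 10 higher without Rs627 (7.87% of all genes), 16 without Rs628 (9.23%), 11 without Rs632 (8.1%) and 21 without Rs631 (11.5%). With the replicate block 45 were higher and 4 lower (16.3% and 24% of all genes). Across all members, 53 of 81 (65.4%) were higher in each of the 4 replicates and 5 (6.17%) were lower in each, against 22.8% and 34.9% of all genes tested. The arrays did not overlap for 20 members that were higher and 2 that were lower, 24.7% and 2.47%, against 11.7% and 17.1% of all genes, where 11.3% and 15.5% of all genes were called. Of the 27 members called, 9 kept their call under all 13 alternatives tried: Ndufc1, Ndufa7, Ndufab1, Ndufv3, Sdhd, Uqcrfs1 and Atp5mc3 higher, and Atp5if1 and Cox6a2 lower.

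**Figure D2:**
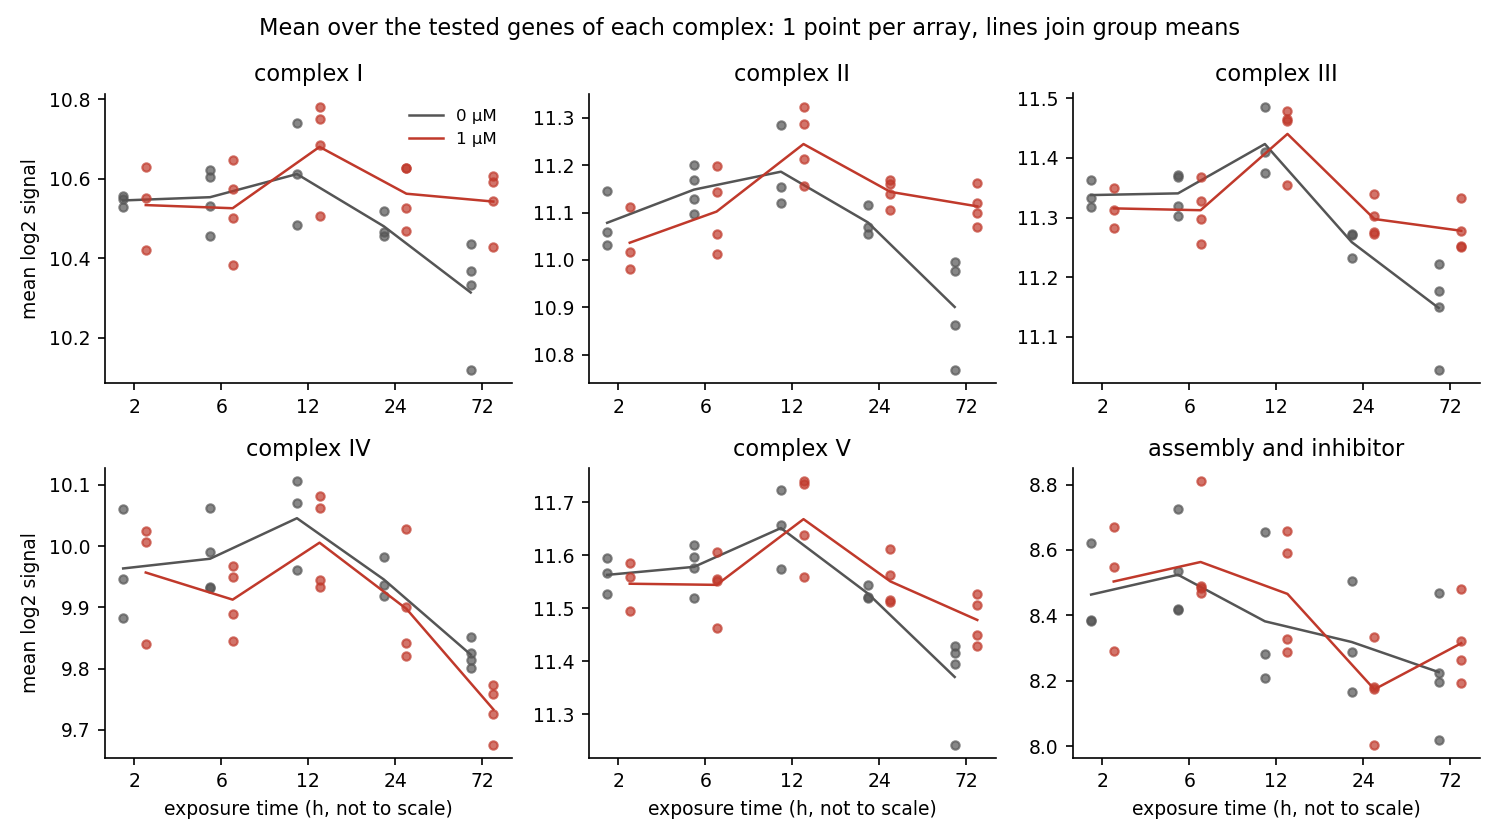
Mean log2 signal over the tested genes of each complex (vertical axis) at each exposure time (h) at 0 µM and at 1 µM; each point is an array and lines join group means. At 72 h the means of complex I were 10.31 at 0 µM and 10.54 at 1 µM; that of complex IV was lower at 1 µM, 9.73 against 9.82, and contains Cox6a2.

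At 24 h Atp5if1 was at 10.31, 10.22 and 10.05 at 0 µM in Rs627, Rs631 and Rs632 and at 9.55, 9.32, 9.89 and 9.15 at 1 µM in all 4 replicates, a change of −0.72 ± 0.11 (adjusted p 7.33e-07). The groups did not overlap, and within replicates the change was −0.33 in Rs631, −0.75 in Rs627 and −0.90 in Rs632. Of the 7 members that rose, Ndufc1 (0.41 ± 0.11), Ndufv3 (0.34 ± 0.11), Ndufa7 (0.30 ± 0.08), Uqcrfs1 (0.29 ± 0.06) and Atp5mc3 (0.13 ± 0.05) were also among the 25 at 72 h. Ndufa4 (0.14 ± 0.05) and Sdhaf1 (0.51 ± 0.15), which protects the iron-sulfur clusters of complex II during assembly, were called at 24 h and not at 72 h. Of these 10 calls, those of Ndufc1, Uqcrfs1 and Atp5if1 held under all 13 alternatives, while that of Sdhaf1 was lost without Rs627, that of Ndufa4 whichever replicate was left out, that of Atp5mc3 without Rs627, Rs631 or Rs632, that of Ndufv3 without Rs628 or Rs632 and that of Ndufa7 without Rs632. The calls of Ndufv3 and Ndufa7 at 24 h were also lost with the mean of a gene's probe sets.

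Cox6a2 had not passed at 24 h. It was at 6.44 to 6.6 at 0 µM and at 5.44 to 6.26 at 1 µM, with no overlap, a change of −0.65 ± 0.49 (adjusted p 0.302, and 0.0403 with the replicate block).

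The complex I assembly factors Ndufaf7 and Ndufaf5 were lower at 24 h. Ndufaf7 was at 6.10, 6.83 and 6.65 at 0 µM and at 5.51, 6.39, 5.76 and 5.43 at 1 µM, a change of −0.75 ± 0.28 (adjusted p 0.0385). The groups overlapped, each of the 3 replicates with both arrays was lower, and the call was lost without Rs631 or without Rs632. It was also lost with the mean of the gene's probe sets and held in 5 of the 13 alternatives. Ndufaf5, which hydroxylates Ndufs7, was at 7.30 to 7.38 at 0 µM and at 6.71 to 7.15 at 1 µM (−0.32 ± 0.11, adjusted p 0.0186), with no overlap, and the call was lost without Rs632. Both calls were also lost without the arrays of low signal, which at 1 µM and 24 h are Rs631 and Rs632 (adjusted p up to 0.379 and 0.885 over all alternatives). Genes tested had a median change of −0.23 at 24 h, and of −0.10 without those arrays. After quantile normalization 8 members were higher and 1 lower, against 10.3% and 15.7% of all genes. With each array centred on the median of the genes tested, 29 members were higher and 1 was lower at 24 h, against 15.7% and 7.9% of all genes.

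**Figure D3:**
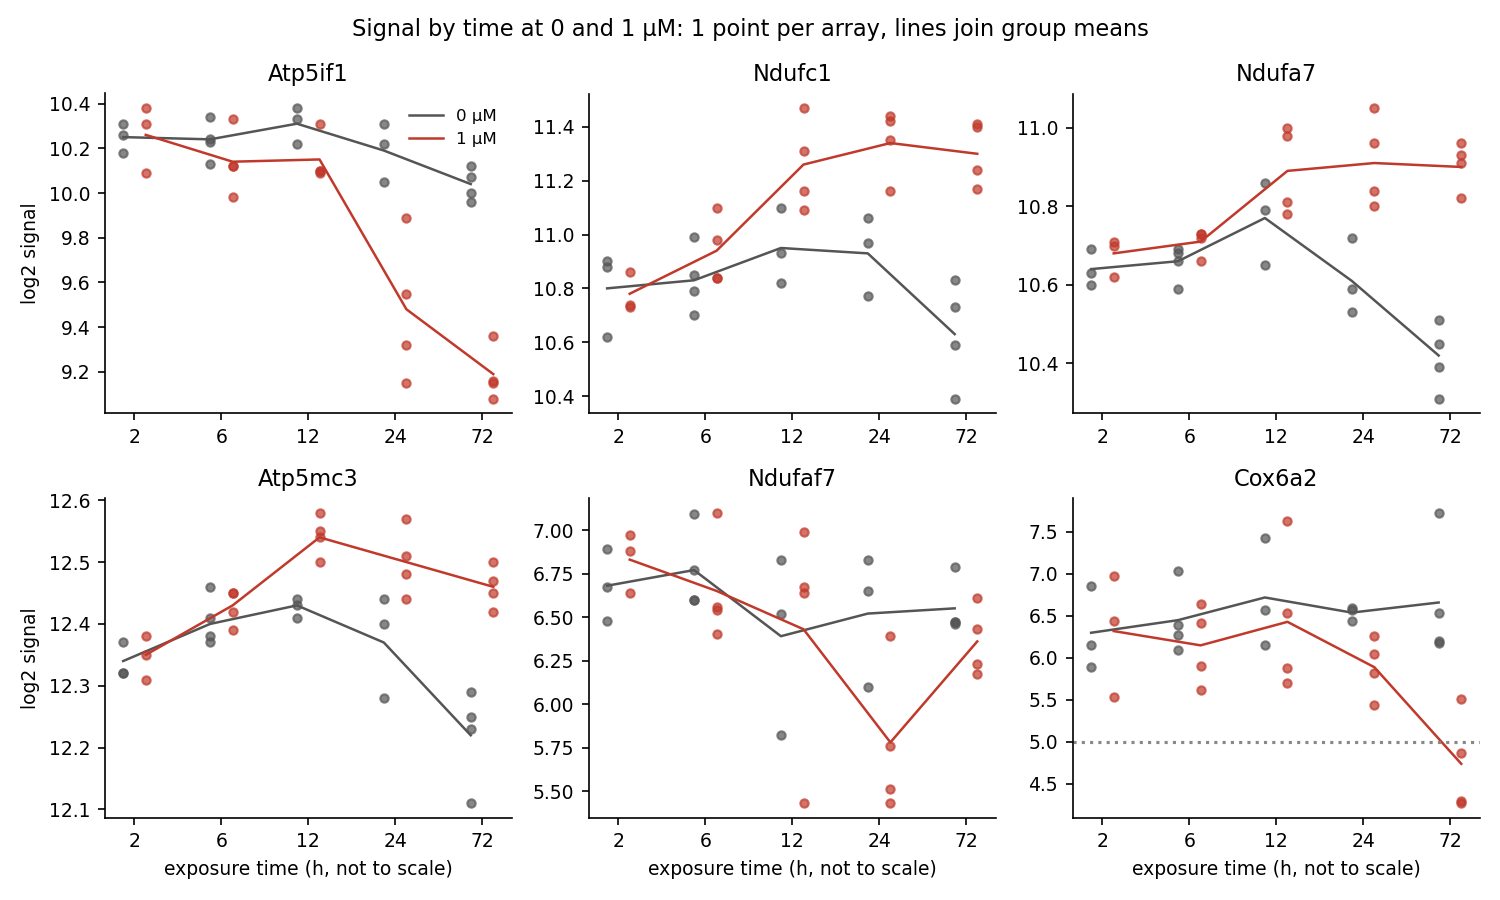
Log2 signal of 6 members at each exposure time (h) at 0 µM and at 1 µM; each point is an array, lines join group means, and the dotted line in the panel of Cox6a2 marks the log2 signal of 5 used in the filter. Atp5if1 fell to a mean of 9.48 at 24 h and 9.19 at 72 h at 1 µM, while the means of Ndufc1 and Ndufa7 at 0 µM were lower at 72 h than at 2 h.

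Signal in the untreated cultures was lower at 72 h than at 2 h for most members. Between 2 h and 72 h at 0 µM, 6 members fell and none rose, where 3.18% and 0.226% of all genes fell and rose: Atp5me (−0.33 ± 0.09), Ndufa1 (−0.29 ± 0.08), Cox5b (−0.27 ± 0.07), Uqcr10 (−0.26 ± 0.06), Atp5f1a (−0.24 ± 0.06) and Uqcrq (−0.17 ± 0.05). They belong to complexes I, III, IV and V, and Atp5f1a encodes the α subunit of the ATP synthase head. Uqcr10 was at 11.96, 12.01 and 11.96 at 2 h in Rs627, Rs631 and Rs632 and at 11.68, 11.57, 11.85 and 11.75 at 72 h, with no overlap. The count was 0 without Rs627 or without Rs632 (0.69% and 0.656% of all genes lower), 1 without Rs631 (0.543%), and 2 without Rs628 (2.02%). It was 30 with the replicate block (12.5%), where Rs628 has no array at 2 h. Of the 81 members 79 had a change below 0, with a median of −0.21, but all genes tested had a median of −0.17, and with arrays quantile-normalized or centred on the median of all probe sets or of the genes tested no member passed. Uqcrq was at 0.02 with arrays centred on their median.

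The change at 1 µM was larger at 72 h than at 2 h for 8 members and more negative for 1 in the test of that difference, where 4.4% and 4.26% of all genes differed upward and downward. The 8 were Ndufc1 (0.69 ± 0.16), Sdhd (0.48 ± 0.11), Ndufa7 (0.45 ± 0.11), Ndufab1 (0.43 ± 0.13), Uqcrfs1 (0.38 ± 0.09), Ndufa9 (0.37 ± 0.12), Uqcrc2 (0.32 ± 0.10) and Atp5mc3 (0.23 ± 0.07), and the 1 was Atp5if1 (−0.86 ± 0.16). With the replicate block 18 and 2 passed, and the share of all genes in that fit was not counted. Uqcrfs1, 1 of the 8, was at 11.14 ± 0.01 (SD, n = 3) at 2 h and 10.98 ± 0.09 (n = 4) at 72 h at 0 µM. At 1 µM it was at 11.16 ± 0.03 (n = 3) and 11.37 ± 0.03 (n = 4). At 2 h the groups overlapped, and at 72 h the treated mean lay above and the untreated mean below those of 2 h. The mean over all 81 members did not climb at 1 µM, with 10.46 at 2 h and 10.4 at 72 h. At 0 µM it went from 10.47 to 10.26. For complex I the means were 10.53 and 10.54 at 1 µM, and 10.55 and 10.31 at 0 µM. For Atp5if1 the corresponding means were 10.25 ± 0.07 and 10.04 ± 0.07 at 0 µM and 10.26 ± 0.15 and 9.19 ± 0.12 at 1 µM. Between 24 h and 72 h no member's change at 1 µM differed by the adjusted p (limma; 2 at an unadjusted p of 0.05, 0 with the replicate block, and 0.0113% of all genes in each direction).

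Members passed the test from 0.1 µM upward. At 72 h none passed at 0.001 µM or at 0.01 µM, where 1 and 3 did at an unadjusted p of 0.05 in the same limma fit and 0 and 1 did with the replicate block; of all genes 0.396% were higher and 0.0226% lower at 0.01 µM, and none passed at 0.001 µM. At 0.1 µM 5 members were higher and 2 were lower, against 4% and 4.82% of all genes; with the replicate block the counts were 21 and 4. The 5 were Ndufc1 (0.45 ± 0.11), Ndufv3 (0.44 ± 0.11), Sdhd (0.29 ± 0.07), Uqcrfs1 (0.29 ± 0.06) and Atp5mc3 (0.15 ± 0.05), all 5 among the 25 at 1 µM, and the 2 were Atp5if1 (−0.60 ± 0.11) and Cox6a2 (−1.59 ± 0.49). At 10 µM 27 were higher and 2 were lower, against 12.5% and 15.6%. With the replicate block these counts were 39 and 4, and without arrays at repeated plate positions they were 12 and 4. The shares of all genes under these alternatives were not counted at concentrations other than 1 µM. The comparisons at 72 h share their 0 µM arrays, and 19 members were called higher at both 1 µM and 10 µM, 76% of the 25 and 70.4% of the 27. The overlap between concentrations over all genes was not counted, so these shares have no background beside them. Called at 10 µM and not at 1 µM were Ndufaf4 (0.51 ± 0.18), Sdhaf4 (0.46 ± 0.18), Ndufb10 (0.40 ± 0.13), Ndufb6 (0.36 ± 0.14), Ndufs8 (0.28 ± 0.11), Atp5pb (0.25 ± 0.09), Cox5b (0.20 ± 0.07) and Ndufa4 (0.19 ± 0.05), whose changes at 1 µM were 0.39, 0.34, 0.29, 0.28, 0.25, 0.18, 0.15 and 0.12.

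Atp5if1 shows the order of concentrations. Its signals at 72 h were 9.95 to 10.16 at 0.001 µM, 9.64 to 9.96 at 0.01 µM, 9.24 to 9.60 at 0.1 µM, 9.08 to 9.36 at 1 µM and 8.89 to 9.38 at 10 µM, against 9.96 to 10.12 at 0 µM. Neighbouring concentrations overlapped at 0 and 0.001 µM, at 0.001 and 0.01 µM, at 0.1 and 1 µM and at 1 and 10 µM, and the step from 0.01 to 0.1 µM was without overlap. Ndufc1 ran the other way, with means of 10.63, 10.72, 10.88, 11.09, 11.30 and 11.32 from 0 to 10 µM. Cox6a2 was at 6.66 ± 0.75 at 0.001 µM (SD, n = 4), at 6.30 ± 0.68 at 0.01 µM and at 5.07 ± 0.34 at 0.1 µM (n = 3), where 2 of 3 arrays were above 5; Rs628 carried its highest signal at 0, 0.001, 0.01, 1 and 10 µM.

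**Figure D4:**
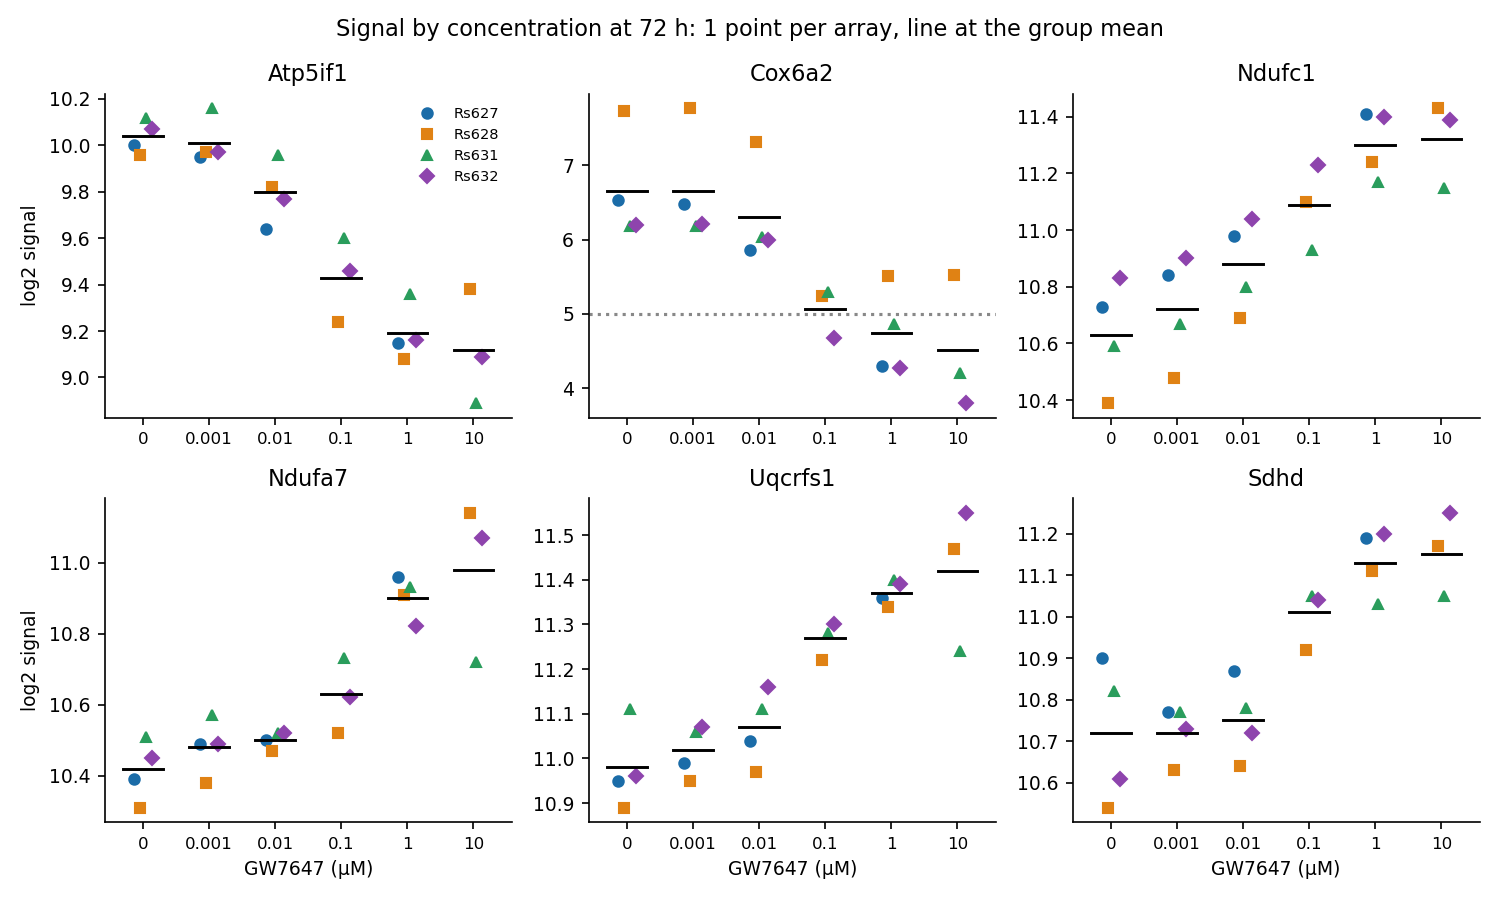
Log2 signal of 6 members at 72 h at each GW7647 concentration (µM, categories); each point is an array with the replicate given by its marker, black lines are group means, and the dotted line marks a log2 signal of 5. At 0.1 µM Atp5if1 and Cox6a2 had passed the test downward and Ndufc1, Uqcrfs1 and Sdhd upward, and Ndufa7 passed at 1 µM and 10 µM.

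Between 1 and 10 µM at 72 h no member differed by the adjusted p, and 1 did at an unadjusted p of 0.05 (limma; 0 by the adjusted p with the replicate block). The difference, 10 µM minus 1 µM, was −0.07 for Atp5if1 (95% interval −0.29 to 0.15), 0.02 for Ndufc1 (−0.20 to 0.24), 0.07 for Ndufa7 (−0.08 to 0.23) and 0.05 for Uqcrfs1 (−0.08 to 0.17). These intervals bound the difference and do not show that the concentrations act alike. At earlier times Atp5if1 alone was called at 0.1 µM and 24 h (−0.52 ± 0.12, where 2.96% of all genes were higher and 1.36% lower), 6 members were higher and 1 lower at 10 µM and 24 h (6.43% and 10.7% of all genes), and at 10 µM and 12 h Ndufc1 (0.38 ± 0.12) and Atp5mc3 (0.16 ± 0.05) were higher and none was lower (5.55% and 2.4% of all genes). With the replicate block the members higher in these 3 comparisons numbered 10, 21 and 8, and those lower 1, 2 and 0. The shares of all genes in that fit were not counted here.

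**Figure D5:**
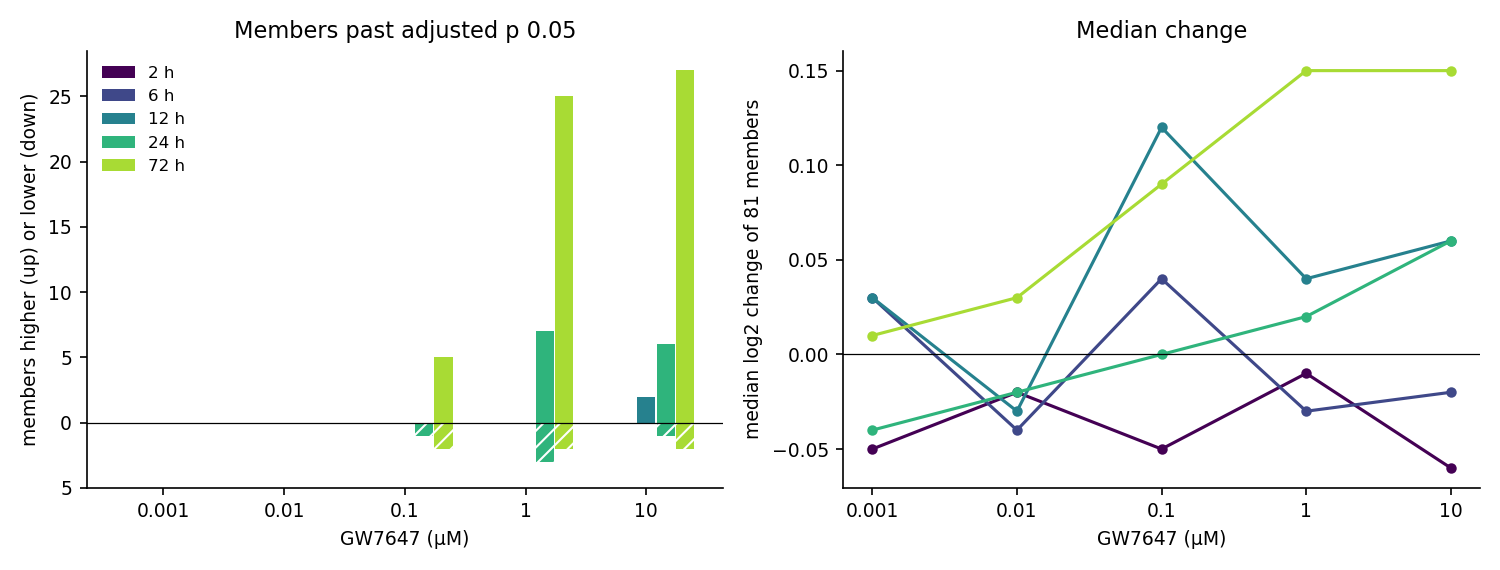
Left, number of the 81 members past an adjusted p of 0.05 against 0 µM at each concentration (µM) and time, higher above the line and lower (hatched) below it; right, the median log2 change of the members. At 72 h the counts higher are 5 at 0.1 µM, 25 at 1 µM and 27 at 10 µM.

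Other genes of the mitochondrion were counted at 1 µM and 72 h, where 11.3% of all genes were higher and 15.5% lower. Of 17 measured genes of subunits, electron carriers and ubiquinone that the prefixes leave out, 12 were higher and 1 lower, with a median of 0.54. Only Cyc1 among these 17 is a subunit of complexes I to V. Gpd2, the flavoprotein of the glycerol phosphate shuttle that feeds ubiquinone from the outer face, was at 5.92, 6.13, 5.80 and 6.03 at 0 µM and at 8.55 to 9.29 at 1 µM, with no overlap, a 7.67-fold rise (2.94 ± 0.24). Cyc1, the cytochrome c1 of complex III, rose by 0.37 ± 0.12. The electron transfer flavoprotein chain that carries electrons from acyl-CoA dehydrogenases rose as well: Etfb by 1.00 ± 0.11, Etfdh by 0.86 ± 0.13 and Etfa by 0.29 ± 0.06. The ubiquinone biosynthesis genes Pdss2 and Coq5 rose by 1.05 ± 0.14 and 0.91 ± 0.16. All 13 fatty acid oxidation genes rose, with a median of 1.51; Hadha, the α subunit of the trifunctional protein, was at 9.69 to 9.85 and at 11.40 to 11.54.

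Of 30 assembly factors outside the prefixes, 8 were higher and 1 was lower, with a median of 0.16, against 11.3% and 15.5% of all genes. Lrpprc, which stabilises mitochondrial mRNAs, rose by 0.47 ± 0.09, the complex I factors Foxred1 and Acad9 by 0.74 ± 0.15 and 0.53 ± 0.12, and the copper chaperone Sco1 by 0.46 ± 0.11, while the complex IV factor Pet100 fell by 0.33. Of 13 regulators, 3 were higher and 1 was lower, beside the same shares of all genes. Tfam, which packages and transcribes mitochondrial DNA, was at 8.54, 8.56, 8.67 and 8.54 at 0 µM and at 9.51, 9.32, 9.46 and 9.72 at 1 µM, a 1.90-fold rise without overlap, and Tfb2m, the mitochondrial transcription factor that works with it, rose by 0.65 ± 0.11. Of the PGC-1 coactivators Ppargc1b rose by 0.67 ± 0.19. Ppargc1a passed as lower with signals near the floor. It was at 5.04 to 6.26 at 0 µM and at 3.85 to 5.44 at 1 µM, above 5 on 2 of the 4 treated arrays and higher at 1 µM in Rs628. Its change was −0.6 with values under 5 set to 5.

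In the citric acid cycle 5 of 12 genes were higher and 2 lower, and of the 7 carriers and porins 2 were higher and 2 lower. Of all genes 11.3% were higher and 15.5% lower. The succinyl-CoA ligase genes Suclg1, Sucla2 and Suclg2 rose by 0.63 ± 0.07, 0.57 ± 0.09 and 0.50 ± 0.08 and citrate synthase, Cs, by 0.53 ± 0.09, while Idh2 and Idh3a were lower by log2 changes of −0.58 ± 0.19 and −0.32 ± 0.12. Of 7 carriers and porins, the uncoupling proteins Ucp3 and Ucp2 rose from 3.59 ± 0.15 to 5.19 ± 0.93 and from 4.21 ± 0.52 to 5.49 ± 0.21 (SD, n = 4 each), below 5 on all untreated arrays and on Rs631 at 1 µM for Ucp3, and the porin Vdac3 and the phosphate carrier Slc25a3 were lower by changes of −0.30 ± 0.06 and −0.17 ± 0.06.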

How the data were processed

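The deposited table holds log2 signals, 1 per probe set and array (31139 probe sets, 100 arrays); the submitters' processing notes name GCRMA and Partek, without versions. GCRMA subtracts background and pulls dim probe sets to a floor. No renormalization was done here. A gene with several probe sets of its symbol alone was represented by the brightest on average, and kept with a log2 above 5 in at least 3 arrays. One mean per group was fitted to all 100 arrays with limma 3.58.1 (R 4.3.3; 70 residual degrees of freedom), and p-values were adjusted by Benjamini-Hochberg over 8843 genes per comparison at 0.05. Errors beside changes are standard errors of that fit, and 95% intervals come from it. The labels give every array a biological replicate name; deviations from group means correlated at a median of 0.62 within a name (0.52 to 0.71 by name) and −0.22 between names, so names were taken to pair arrays, and the fit with the name as a replicate block is given where it changes a count. Members, lists and motifs were chosen with earlier results of these data known. Named genes were the up to 15 called members by size in each direction at 24 h and 72 h, isoform pairs, the 8 largest culture changes, and up to 6 genes per list by p; others were named after their values were seen. The fit was tested on simulated data for 1 µM against 0 at 72 h over 8843 genes: it recovered 4% of 50 changes of 0.25, 44% of 50 of 0.5, 80% of 50 of 1 and 98% of 50 of 2, with 6 false calls. Only those genes were changed, and the noise was independent, without a replicate term. In the data 11.3% of all genes were called higher and 15.5% lower in this comparison. The recovered shares therefore do not carry over to it. Arrays give no read depth, and the number of arrays limits the precision.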

Additional observations from a re-analysis of the deposited data

Results flagged for a closer look

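Among 84 groups of 4 arrays of named members, 3 had an array far from the others; chance alone gives about 1 in 20. Ndufab1 at 0 µM and 72 h was at 10.87 in Rs628 and at 11.27 to 11.31 in the other replicates. Ndufaf5 at 1 µM and 24 h was at 6.71 in Rs632 and at 7.10 to 7.15 in the others. Ndufaf7 at 0 µM and 72 h was at 6.79 in Rs631 and at 6.46 to 6.47 in the others.

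The change at 1 µM differed between 72 h and 2 h by a test of that difference (limma) for 9 members. It was lower for Atp5if1 (−0.86) and higher for Ndufc1 (0.69), Sdhd (0.48), Ndufa7 (0.45), Ndufab1 (0.43), Uqcrfs1 (0.38), Ndufa9 (0.37), Uqcrc2 (0.32) and Atp5mc3 (0.23).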

How the results depend on the processing

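With the replicate block (paired arrays), 1 µM gave 1 higher member (6 h), 2 (12 h), 21 (24 h) and 45 (72 h) and 5 (24 h) and 4 (72 h) lower, and 30 were lower at 0 µM at 72 h against 2 h. The shares of all genes were, in the same order, 2.95%, 7.02%, 11.4% and 16.3% higher, 38.4% and 24% lower, and 12.5% lower at 0 µM. Fitted on the compared times alone, 4 and 13 were higher at 24 h and 72 h (5.53% and 11.2% of all genes) and 2 lower at 0 µM (2.51%). Quantile normalization gave 1 lower at 24 h, 4 lower at 72 h and 0 lower at 0 µM (15.7%, 17.4% and 0.509% of all genes). Centring on each array's median gave 0 lower at 0 µM (0.181% of all genes) and turned Uqcrq there to 0.02. Centring on the median of the genes tested, chosen after seeing the data, gave 29 higher and 1 lower at 24 h, 14 higher at 72 h and 0 lower at 0 µM. Of all genes these shares were 15.7%, 7.9%, 14.6% and 0.396%. Without arrays of low signal 1 was lower at 24 h (8% of all genes) and 10 at 0 µM (6.72%). Lower were also 1 at 24 h without arrays at repeated positions (8.94%) and 12 at 0 µM without the filter (9.84%). Leaving out each replicate in turn gave 0 to 1 higher at 12 h, 3 to 10 higher and 1 to 3 lower at 24 h, 10 to 21 higher and 2 to 3 lower at 72 h, and 0 to 2 lower at 0 µM. Of all genes 2.71% to 4.2% were then higher at 12 h. At 24 h 4.22% to 8.18% were higher and 5.59% to 30% lower, and at 72 h 7.87% to 11.5% and 9.32% to 13.8%. At 0 µM 0.543% to 2.02% were lower. The cause of these shifts was not tested. Changes near the floor of 5, such as that of Cox6a2, are limited by signal over background.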

Other observations

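Some 11 probe sets whose annotation lists a member's symbol with a further entry (the same symbol again, a paralogue, a pseudogene or another gene) were left out because they cannot be assigned to 1 gene. In a fit over 15873 probe sets past the same filter, 4 of the 11 were higher and 0 lower at 1 µM and 72 h, with changes from −0.09 to 0.96. The shares of all probe sets called in that fit were not counted, so this count has no background beside it. The 4 list Ndufa3 with Ndufa3-ps3 (0.96 ± 0.09), Ndufa10 with Ndufa10l1 (0.38 ± 0.11), Uqcrb with Uqcrbl1 (0.25 ± 0.07) and Atp5f1c with Taf3 (0.23 ± 0.06). The first of them changed more than Ndufc1 (0.67), the highest of the members tested.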
